A study of Mus musculus with 36 samples.

Results

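A set of 10 transcription regulators that establish and hold B lineage identity was followed in the mouse pre-B cell line B3: Pax5, Ebf1, Pou2af1, Pou2f2, Myb, Sox4, Lef1, Bcl11a, Bach2 and Bcl6. They were taken by gene symbol, and all 10 were among the 12762 genes of the mRNA-seq table. B3 models an early, dividing pre-B stage, and both lines made from it are transduced cultures rather than primary cells. The Ikaros line carries a retroviral MSCV vector with HA-Ikaros fused to ERt2, the hormone-binding domain of the estrogen receptor, followed by IRES-GFP, so that 4-hydroxy-tamoxifen (4-OHT) moves the fusion into the nucleus. Control cells were given the ERt2 vector without Ikaros. The 36 libraries cover 0, 2, 6, 12, 18 and 24 h of both lines, 3 per group, from culture batches 1, 2 and 4 at 0 h and 1, 3 and 4 later. All libraries of both lines are labelled with 0.5 uM 4-OHT, also at 0 h, but by the study's methods the 0 h cells were collected separately and without drug. A comparison with 0 h therefore also compares collection occasions, and at 0 h the vector and the line cannot be told apart. Values are the authors' normalized log2 expression, adjusted for the length and GC content of each gene, with a constant added. They are not counts, and the depth each library reached cannot be read from them.

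B cell development starts when Ebf1 and Pax5 switch on the genes of the B lineage and shut off those of other lineages. Pou2f2 and its coactivator Pou2af1 act on the octamer of immunoglobulin promoters, Myb, Sox4, Lef1 and Bcl11a are needed by the dividing progenitors, and the BTB-domain repressors Bach2 and Bcl6 guard later steps of B cell maturation. Ikaros is a zinc finger factor of the lymphoid lineage that drives pre-B cells out of the dividing stage.

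In the Ikaros line at 24 h, 7 of the 10 factors stood higher than in the control line, 2 stood lower and 1, Pou2f2, was not called, where 31.0% of all genes were called higher and 31.9% lower. The largest difference was that of Bach2, 43.7-fold (a log2 difference of 5.45; limma, SE 0.28, adjusted p = 3.12e-15), and the lowest that of Bcl11a (-2.04; limma, SE 0.13, adjusted p = 1.4e-13). The order in time differed between the factors. Bcl11a and Lef1 were low within 2 h. For Lef1 the change of the difference since 0 h was not yet called then (limma, adjusted p = 0.105). Pou2f2 stood below control at 0 h without a call, was raised at 12 h and first overlapped with control at 18 h. Bach2 was called higher than control from 6 h, while its change since 0 h was first called at 12 h. Pax5, Pou2af1 and Sox4 were raised from 12 h, and Myb from 18 h. Bcl6 was already 4.01-fold higher in the Ikaros line at 0 h.

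To show the start regions of the members that rose most and of those that fell, the RefSeq promoter windows of Bach2, Bcl6, Lef1 and Bcl11a are printed 5′ to 3′ on the strand of the gene (GRCm38.p6, 250 bases before the start and 50 from it). Capitals mark GGGAA, the core letters of the Ikaros motif, and its reverse complement TTCCC. Bach2 lies at chr4:32417185-32417484 (forward strand), Bcl6 at chr16:23988803-23989102 (reverse), Lef1 at chr3:131110047-131110346 (forward) and Bcl11a at chr11:24080445-24080744 (forward), each the first that the RefSeq table gives for the gene (1 window for Bach2 and Bcl11a, 2 for Bcl6 and 4 for Lef1).
Bach2: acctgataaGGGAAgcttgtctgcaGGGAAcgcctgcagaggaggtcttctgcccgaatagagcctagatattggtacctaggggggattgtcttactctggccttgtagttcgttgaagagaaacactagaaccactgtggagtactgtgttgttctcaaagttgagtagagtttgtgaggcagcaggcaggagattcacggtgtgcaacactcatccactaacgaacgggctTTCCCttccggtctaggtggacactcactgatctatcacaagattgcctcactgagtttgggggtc
Bcl6: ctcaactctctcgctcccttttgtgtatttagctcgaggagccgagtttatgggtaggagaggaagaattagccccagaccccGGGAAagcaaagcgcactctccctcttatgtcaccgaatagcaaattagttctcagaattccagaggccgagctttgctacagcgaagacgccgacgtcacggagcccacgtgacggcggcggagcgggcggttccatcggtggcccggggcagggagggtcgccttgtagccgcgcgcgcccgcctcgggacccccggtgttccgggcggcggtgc
Lef1: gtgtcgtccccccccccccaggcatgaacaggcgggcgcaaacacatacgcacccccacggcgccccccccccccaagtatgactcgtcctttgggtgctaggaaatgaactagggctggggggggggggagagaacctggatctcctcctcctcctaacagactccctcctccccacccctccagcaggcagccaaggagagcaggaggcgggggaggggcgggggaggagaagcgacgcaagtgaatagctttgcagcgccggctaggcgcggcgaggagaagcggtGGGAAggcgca
Bcl11a: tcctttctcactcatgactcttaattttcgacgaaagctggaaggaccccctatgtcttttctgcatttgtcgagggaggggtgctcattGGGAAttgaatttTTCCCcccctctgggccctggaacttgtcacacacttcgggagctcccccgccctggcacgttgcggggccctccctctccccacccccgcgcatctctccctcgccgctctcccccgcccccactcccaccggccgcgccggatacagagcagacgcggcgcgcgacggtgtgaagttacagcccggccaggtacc
The letters occurred 3 times in the window of Bach2, 2 times in that of Bcl11a and 1 time each in those of Bcl6 and Lef1. Across the 10 members, 9 windows held at least 1 match, all but that of Myb, against 62.7% of 32851 promoter windows of 300 bases. CTTTGA, the core that Lef1 and the Tcf factors read, was found in the windows of Ebf1 and Bach2, and in 16.0% of all windows. The octamer ATGCAAAT, held by 1.74% of all windows, was in none of the 10. Both strands were searched, and none of these motifs contains another. The windows of Bach2, Bcl11a, Ebf1 and Pou2f2 lie inside their genes. These start at 32238804, 24078056 and 44617317 in GENCODE, and for Pou2f2, on the reverse strand, at 25179726. A match is a description of letters only, and which start these cells used was not measured.

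**Figure D1:**
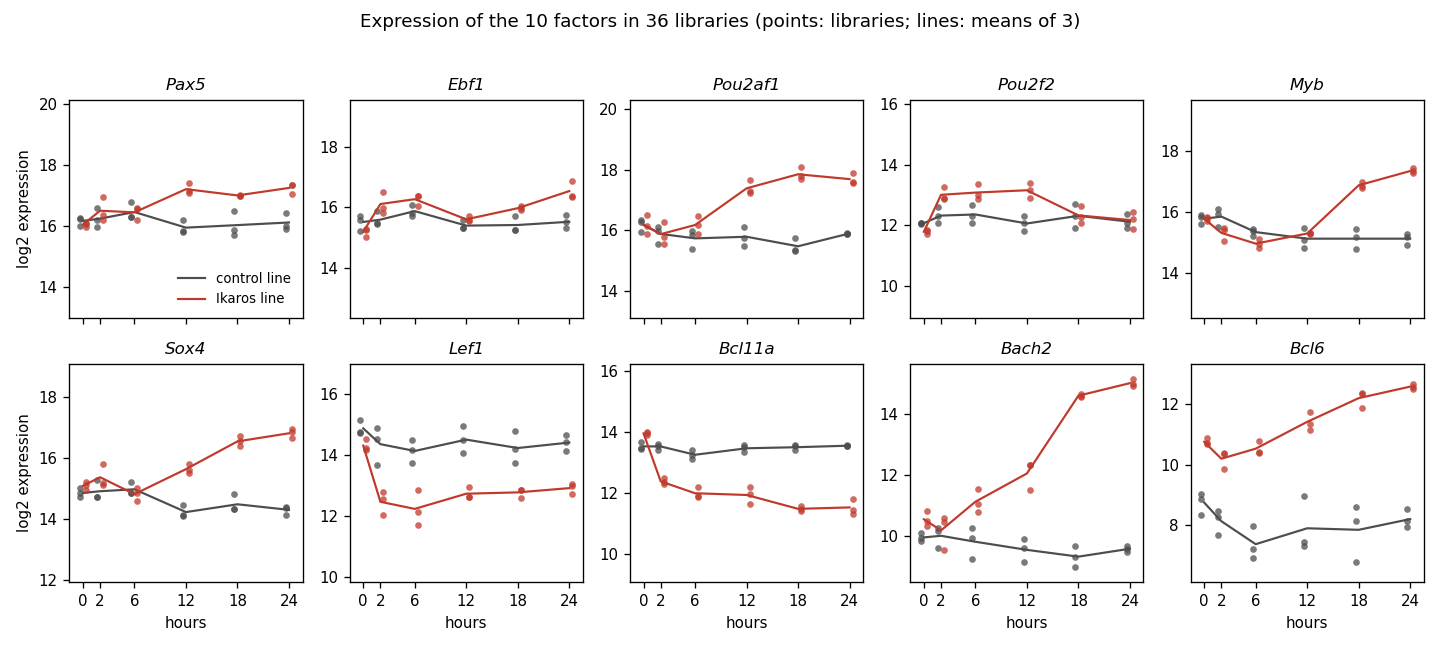
Log2 expression of each factor (y axis, each panel spanning the same range) against hours (x axis) in the control line (grey) and the Ikaros line (red); points are the 36 libraries and lines join the means of 3. Bach2 and Bcl6 open the widest gaps, to 5.45 and 4.36 at 24 h, Lef1 and Bcl11a go down within 2 h, and the points of Pou2f2 overlap from 18 h on.

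The Ikzf1 gene, which encodes Ikaros, was read first as a check of the line labels. It was higher in the Ikaros line by 5.19 and 6.10 log2 units at 0 and 24 h (limma, SE 0.18 for each, adjusted p = 5.28e-17 and 1.79e-19), and the lines did not overlap at any time. Vector and endogenous reads are not separated in it. Batch 4 stood apart for several members: counting the 10 libraries of that batch from 2 h on, Pax5 and Ebf1 lay above their group mean in 9, Sox4 in 10, and Bach2, Lef1 and Pou2af1 in 1 each. Batch 4 is replicate 3 of every group. The members' differences between the lines, their called changes and the counts of members and genes called were therefore recomputed without it. So were the list genes named as called at 24 h. List genes at 0 and 2 h, levels, medians, pair counts and correlations were not.

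Of the 10 factors, 2 were called at 0 h (adjusted p under 0.05, limma with Benjamini-Hochberg adjustment over all 12762 genes; 8.33% of all genes were called), then 6 at 2 h (19.1%), 5 for 6 h (37.3%), 8 for 12 h (45.8%), and 9 each at 18 and 24 h (58.2% and 62.9%). Without replicate 1 or replicate 2 the counts were 1 at 0 h and 3 at 2 h, and in a fit of the 2 h groups alone 3 were called. The count for 6 h was 8 with batches as replicate blocks and the 0 h cultures kept as blocks apart. At 24 h, the 7 called higher compare with 31.0% of all genes called higher, and the 2 called lower with 31.9%. The 3 libraries of each line did not overlap for 5 of the 10 at 0 h (32.7% of all genes), 5 for 2 h (27.9%), 6 for 6 h (41.0%), 8 for 12 h (51.0%), and 9 each for 18 and 24 h (64.5% and 71.0%). The median difference of the 10 was 0.22, 1.18 and 1.46 log2 units for 2, 12 and 24 h, where the median over all genes lay between -0.03 and 0.00 at the 6 times.

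**Figure D2:**
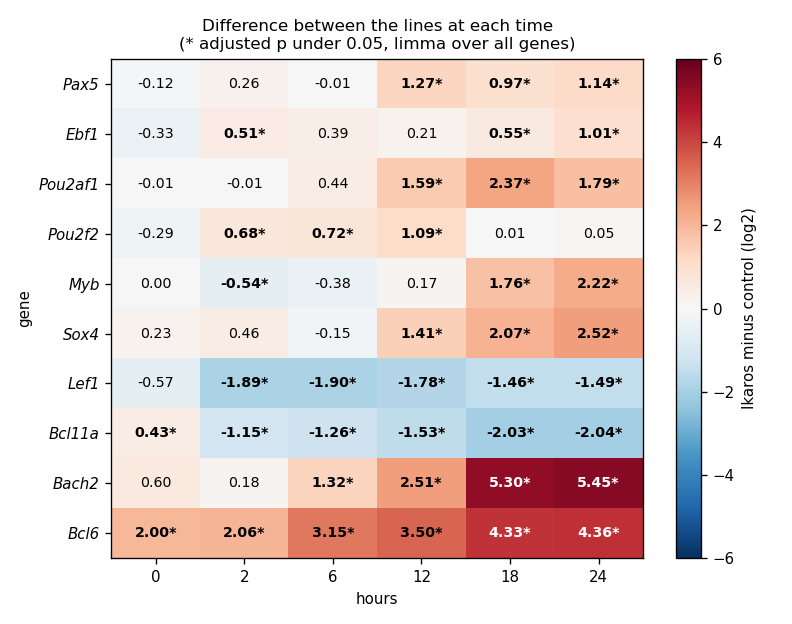
Difference between the Ikaros and the control line (log2, colour and printed value) for each factor (rows) at each time in hours (columns); an asterisk and bold type mark an adjusted p under 0.05. From 12 h on, 8, 9 and 9 of the 10 factors are called, with Lef1 and Bcl11a lower and the others called higher.

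Ebf1 and Pax5 work at the head of the lineage. Ebf1 specifies the B lineage and activates Pax5, and Pax5 commits cells to it by activating B cell genes such as Blnk and repressing genes of other lineages. Positions are given on GRCm38, where GENCODE lists all 10 members as protein coding. Pax5 (chromosome 4, 44524757 to 44710487, reverse strand) read 16.23, 16.27 and 16.00 in the control libraries at 0 h and 16.09, 16.07 and 15.98 in the Ikaros libraries. The lines overlapped at 0, 2 and 6 h. At 12 h the control libraries read 15.79, 15.84 and 16.20 and the Ikaros libraries 17.07, 17.14 and 17.42, a difference of 1.27 (limma, SE 0.20, adjusted p = 1.12e-05). At 18 h they read 15.70, 15.88 and 16.50 against 17.00, 17.01 and 17.00, and at 24 h 16.01, 15.91 and 16.42 against 17.04, 17.35 and 17.36. Every Ikaros library was above every control library at these 3 times, with differences of 0.97 and 1.14 at 18 and 24 h (limma, SE 0.20 for each, adjusted p = 0.000194 and 2.47e-05). Pax5 thus stood 2.2-fold higher at 24 h, the second smallest of the 7 differences called higher.

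Ebf1 (chromosome 11, 44617317 to 45008091, forward strand) had a course in several steps. The control libraries read 15.73, 15.60 and 15.23 at 0 h and the Ikaros libraries 15.26, 15.30 and 15.03, with overlap. Ikaros cells then read 15.82, 15.99 and 16.52 at 2 h, 16.06, 16.38 and 16.37 at 6 h, 15.54, 15.57 and 15.71 at 12 h, 15.98, 15.90 and 16.04 at 18 h and 16.35, 16.87 and 16.39 at 24 h. Ebf1 was thus high at 2 and 6 h, lower at 12 h and highest at 24 h. The control libraries stayed between 15.23 and 16.07 over all times and read 15.51, 15.33 and 15.74 at 24 h. Against control the difference was 0.51 at 2 h, where the libraries overlapped (limma, SE 0.18, adjusted p = 0.0434). It was 0.39 and 0.21 at the next times (adjusted p = 0.0817 and 0.358), again with overlap. At 18 and 24 h it was 0.55 and 1.01, without overlap (limma, SE 0.18 for each, adjusted p = 0.00926 and 1.82e-05). The calls at 2 and 18 h were lost without replicate 1 (limma, adjusted p = 0.182 and 0.124) and without replicate 2 (0.288 and 0.107), and that at 2 h also when only the groups compared were fitted (0.263). With the 0 h cultures as replicate blocks of their own, Ebf1 was called at 6 h (0.0207).

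Pou2af1 and Pou2f2 belong to one complex. Pou2f2 (Oct-2) binds the octamer, and Pou2af1 (OBF-1) is the B cell coactivator that joins it there. Their courses differed. Pou2af1 (chromosome 9, 51213708 to 51240080, forward strand) read 16.33, 16.29 and 15.95 in control and 16.52, 16.15 and 15.87 in Ikaros cells at 0 h. At 2 and 6 h the lines still overlapped, with differences of -0.01 and 0.44 (limma, adjusted p = 0.987 and 0.103; 0.0397 at 6 h with the batch as a replicate block). At 12 h the control libraries read 16.13, 15.75 and 15.50 and the Ikaros libraries 17.22, 17.29 and 17.65. At 18 h the values were 15.75, 15.34 and 15.35 against 18.08, 17.78 and 17.69, and at 24 h 15.92, 15.90 and 15.89 against 17.90, 17.56 and 17.61. The libraries were fully apart from 12 h on, and the gap was 1.59, 2.37 and 1.79 in turn (limma, SE 0.21 for each, adjusted p = 6.24e-07, 2.84e-10 and 3.39e-08).

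Pou2f2 (chromosome 7, 25087344 to 25179726, reverse strand) was the only member that was called early and not late. At 0 h the control libraries read 12.09, 12.04 and 12.08 and the Ikaros libraries 11.70, 11.84 and 11.82, all lower but not called (difference -0.29; limma, adjusted p = 0.503). Ikaros cells then gave 12.89, 12.85 and 13.27 at 2 h, 12.87, 13.37 and 12.99 at 6 h and 12.91, 13.38 and 13.17 at 12 h, above all control libraries of the same time (12.08, 12.29 and 12.59 at 2 h, 12.09, 12.31 and 12.67 at 6 h and 11.80, 12.08 and 12.30 at 12 h). The differences were 0.68, 0.72 and 1.09 (limma, SE 0.20 for each, adjusted p = 0.0191, 0.00684 and 7.98e-05). At 18 h the Ikaros libraries had come down to 12.08, 12.63 and 12.27 and at 24 h to 11.88, 12.44 and 12.20, which overlapped with the control libraries at both times (differences 0.01 and 0.05; adjusted p = 0.957 and 0.833). The call at 2 h was lost without any 1 of the 3 replicates (limma, adjusted p between 0.053 and 0.15) and in a fit of the 2 h groups alone (0.102), and that at 6 h without replicate 2 (0.177) and in a fit of the 6 h groups alone (0.0711), whereas the difference at 12 h kept its call in all 9 alternatives.

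Myb and Sox4 are factors of dividing lymphoid progenitors. Myb, the product of the c-myb proto-oncogene, is required for survival of early B cell precursors. It changed sides during the course. Myb (chromosome 10, 21124935 to 21160984, reverse strand) read 15.85, 15.60 and 15.91 in control and 15.71, 15.80 and 15.85 in Ikaros cells at 0 h, a difference of 0.00. At 2 h it read 16.12, 15.94 and 15.51 against 15.48, 15.42 and 15.06, every Ikaros library below every control library (difference -0.54; limma, SE 0.16, adjusted p = 0.0207), and at 6 h 15.45, 15.38 and 15.21 against 15.13, 14.83 and 14.94, again without overlap but not called (-0.38, adjusted p = 0.0698; 0.031 with the batch as a replicate block). The call at 2 h was lost without replicate 1 (limma, adjusted p = 0.145) or replicate 2 (0.273) and in a fit of the 2 h groups alone (0.203). At 12 h the lines overlapped (0.17). At 18 h the control libraries read 15.44, 15.17 and 14.78 and the Ikaros libraries 16.87, 16.81 and 16.98, and at 24 h 15.28, 15.19 and 14.92 against 17.35, 17.44 and 17.28. The lines were then fully apart the other way, by 1.76 and 2.22, or 3.38-fold and 4.67-fold (limma, SE 0.16 for each, adjusted p = 6.45e-10 and 4.59e-12).

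Sox4 is an HMG-box factor that pro-B cells need to survive. Sox4 (chromosome 13, 28948919 to 28953713, reverse strand) read 15.00, 14.85 and 14.70 in control and 15.10, 15.21 and 14.94 in Ikaros cells at 0 h, and the lines overlapped up to 6 h, with differences of 0.23, 0.46 and -0.15 (the value at 2 h reached adjusted p = 0.0183 with the batch as a replicate block, 0.0783 without). At 12 h the libraries read 14.12, 14.08 and 14.46 against 15.60, 15.50 and 15.80, at 18 h 14.31, 14.31 and 14.81 against 16.55, 16.38 and 16.71 and at 24 h 14.40, 14.12 and 14.36 against 16.66, 16.84 and 16.94. No library of one line reached those of the other from 12 h on. The difference was 1.41, 2.07 and 2.52 in turn (limma, SE 0.18 for each, adjusted p = 4.14e-07, 2.35e-10 and 3.36e-12), which is 5.74-fold at 24 h.

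Lef1 and Bcl11a were the 2 members that fell. Lef1, the lymphoid enhancer factor, is the HMG-box partner of beta-catenin in Wnt signalling and supports division of pro-B cells. In the control line Lef1 (chromosome 3, 131110471 to 131224356, forward strand) read 14.77, 14.73 and 15.14 at 0 h, 14.90, 14.52 and 13.66 at 2 h, 14.51, 14.17 and 13.73 at 6 h, 14.96, 14.50 and 14.07 at 12 h, 14.78, 14.19 and 13.73 at 18 h and 14.67, 14.42 and 14.15 at 24 h. The Ikaros libraries read 14.24, 14.17 and 14.53 at 0 h, 12.79, 12.57 and 12.03 at 2 h, 12.86, 12.14 and 11.69 at 6 h, 12.63, 12.95 and 12.61 at 12 h, 12.86, 12.86 and 12.60 at 18 h and 12.71, 12.97 and 13.06 at 24 h. The Ikaros libraries were below the control libraries of the same time throughout, and all 18 pairs from one batch and time went this way. At 0 h the gap was -0.57 and not called (limma, adjusted p = 0.322). By 2 h it was -1.89 (limma, SE 0.30, adjusted p = 4.9e-05). It was -1.90 by 6 h (adjusted p = 2.02e-05) and stood at -1.78, -1.46 and -1.49 later (adjusted p = 2.6e-05, 0.000188 and 0.000125). The control libraries of batch 4 were the lowest of their group at every time from 2 h on.

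Bcl11a is a zinc finger factor without which B cells do not form. Bcl11a (chromosome 11, 24078056 to 24174123, forward strand) was the steadiest member in the control line, where all 18 libraries lay between 13.11 and 13.68. The Ikaros libraries read 13.91, 13.97 and 14.00 at 0 h, above the control values of 13.44, 13.48 and 13.68 (difference 0.43; limma, SE 0.13, adjusted p = 0.0312). They then read 12.48, 12.37 and 12.29 at 2 h, 12.20, 11.88 and 11.89 at 6 h, 11.96, 12.20 and 11.64 at 12 h, 11.39, 11.56 and 11.48 at 18 h and 11.45, 11.80 and 11.32 at 24 h. From 2 h on the highest Ikaros library read 12.48, below every control library. The difference went from -1.15 at 2 h to -1.26, -1.53, -2.03 and -2.04 at the later times (limma, SE 0.13 for each, adjusted p between 1.32e-07 and 1.4e-13). The excess at 0 h was not called without replicate 1 (0.352) or replicate 2 (0.376). The later calls were kept in all 9 alternatives.

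Bach2 and Bcl6 are repressors of the BTB family. Bach2 holds back the plasma cell programme and takes part in the pre-B checkpoint, and Bcl6, best known from the germinal centre, also protects pre-B cells that rearrange their light chain genes. Both were the lowest members in the control line. Bach2 (chromosome 4, 32238804 to 32586108, forward strand) read 10.08, 9.82 and 9.94 there at 0 h, 10.16, 10.24 and 9.60 at 2 h, 10.25, 9.93 and 9.23 at 6 h, 9.88, 9.59 and 9.14 at 12 h, 9.67, 9.30 and 8.97 at 18 h and 9.48, 9.68 and 9.56 at 24 h. Ikaros cells gave 10.82, 10.48 and 10.33 at 0 h, 10.57, 10.44 and 9.52 at 2 h, 11.53, 11.05 and 10.78 at 6 h, 12.32, 12.33 and 11.50 at 12 h, 14.61, 14.56 and 14.66 at 18 h and 15.17, 14.98 and 14.92 at 24 h. The lines overlapped at 2 h only. At 0 h the Ikaros libraries were higher by 0.60, which was not called (limma, adjusted p = 0.229; 0.0331 with the batch as a replicate block). The difference was 1.32 at 6 h (limma, SE 0.28, adjusted p = 0.000485). It stood at 2.51, 5.30 and 5.45 at the last 3 times (SE 0.28 for each, adjusted p = 3.07e-08, 1.18e-14 and 3.12e-15), so the lines were 5.72-fold apart at 12 h and 39.3-fold at 18 h. The change of the difference since 0 h was 0.72 at 6 h and not called (limma, adjusted p = 0.235). By 12 h this change was 1.91 (limma, adjusted p = 0.000481; 0.0672 without replicate 2).

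Bcl6 (chromosome 16, 23965052 to 23988852, reverse strand) already differed between the lines at 0 h. At 0 h the control libraries read 9.05, 8.86 and 8.35 and the Ikaros libraries 10.87, 10.67 and 10.72, a difference of 2.00 (limma, SE 0.38, adjusted p = 0.000582). The control libraries read 8.28, 8.47 and 7.67 at 2 h, 6.93, 7.99 and 7.23 at 6 h, 8.97, 7.31 and 7.44 at 12 h, 8.62, 8.14 and 6.81 at 18 h and 8.53, 7.95 and 8.15 at 24 h. The Ikaros libraries read 10.35, 10.39 and 9.85 at 2 h, 10.79, 10.41 and 10.38 at 6 h, 11.35, 11.15 and 11.73 at 12 h, 12.34, 11.87 and 12.36 at 18 h and 12.56, 12.50 and 12.65 at 24 h. All 18 Ikaros libraries lay above all 18 control libraries. The spread within the control line was the widest of any member, with an SD of 0.94 at 18 h. The difference was 2.06, 3.15, 3.50, 4.33 and 4.36 from 2 to 24 h (limma, SE 0.38 for each, adjusted p between 0.000236 and 1.17e-10), or 20.5-fold at 24 h.

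Since Bcl6 and Bcl11a differed at 0 h, the change of the difference between the lines from 0 h was tested as an interaction. The 5 changes share the 0 h libraries. Of the 10 factors, 1 was called at 2 h (3.10% of all genes), 4 for 6 h (15.9%) and 8 each at 12 h (29.7%), 18 h (43.0%) and 24 h (48.4%). At 2 h there were 3 without replicate 3 and 4 with a replicate block for the batch. With the 0 h cultures as blocks of their own there were also 4, and 661 of all genes were called. At 6 h there was 1 without replicate 1 or replicate 2 and there were 2 in a fit of the 4 groups alone, and at 12 h there were 4 without replicate 2. In the moderated F test over the 5 changes, 9 of 10 were called (59.8% of all genes), and Lef1 missed the threshold (adjusted p = 0.0668). By 24 h the difference had grown by 4.85 for Bach2, 2.36 for Bcl6, 2.29 for Sox4, 2.22 for Myb, 1.80 for Pou2af1, 1.34 for Ebf1 and 1.26 for Pax5, and it had moved by -2.46 for Bcl11a (limma, adjusted p at most 0.000715). The call of Pax5 was lost without replicate 2 (adjusted p = 0.0842). Lef1 (-0.92, adjusted p = 0.0798; 0.0327 with the batch as a replicate block) and Pou2f2 (0.34, adjusted p = 0.347) were not called.

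The change from 2 h to 24 h uses no 0 h library, and 7 of 10 factors were called (47.3% of all genes). The difference between the lines grew by 5.27 for Bach2, 2.76 for Myb, 2.30 for Bcl6, 2.06 for Sox4, 1.80 for Pou2af1 and 0.88 for Pax5, and went -0.89 further for Bcl11a (limma, adjusted p at most 0.0143). Pax5 was not called without replicate 1 (0.0652) or replicate 2 (0.278), or in a fit of the 4 groups alone (0.0526). Lef1 moved by 0.40 (adjusted p = 0.468). Ebf1 moved by 0.50 (adjusted p = 0.104; 0.0311 with the 0 h cultures as replicate blocks of their own), and Pou2f2 by -0.63 (adjusted p = 0.0757; 0.0211 with the batch as a replicate block).

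Each line was also read against its own 0 h. In the Ikaros line the counts called were 5 of 10 at 2 h (19.2% of all genes), 5 for 6 h (32.8%), 8 for 12 h (46.1%), 10 for 18 h (54.6%) and 9 for 24 h (60.6%). The early changes in that line were those of Lef1 (-1.85 at 2 h), Bcl11a (-1.58), Pou2f2 (1.22), Ebf1 (0.91) and Myb (-0.47; limma, adjusted p between 8.35e-10 and 0.0438). Myb was not called there without any 1 of the replicates (adjusted p between 0.0704 and 0.229), and in a fit of both groups alone neither Myb (0.114) nor Ebf1 (0.0568) was. In the control line, the background for drug and culture, no member was called at 2, 12, 18 or 24 h by limma (0.0470%, 0.0549%, 0.478% and 0.470% of all genes). At an unadjusted p under 0.05 the numbers were 0, 3, 6 and 2, and 5 at 6 h. The share of all genes at that threshold was not counted, so these numbers cannot be set beside the shares above. The 1 member called at 6 h (5.10%) was Bcl6, which fell by 1.37 (limma, adjusted p = 0.0369). That call was lost without any 1 of the replicates (0.076 to 0.275) and in a fit of both groups alone (0.112), while without replicate 3 the count was 1 for 12 h and 1 for 24 h. With the batch as a replicate block, 3 members were called in the control line at 6 h, where 2585 of 12762 genes were called. In that fit 1 member each was called at 18 h (129 genes) and 24 h (genes within 1.5 times those of the main fit).

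The step from 12 h to 18 h, chosen after the values were seen, was the largest single step in the Ikaros line for Bach2, Myb and Sox4. Bach2 rose by 2.56, Myb by 1.59 and Sox4 by 0.91, while Pou2f2 moved by -0.83 and Bcl11a by -0.46 (limma, adjusted p = 2.38e-07, 1.11e-07, 0.000536, 0.00384 and 0.0078); these were 5 of the 10 (25.5% of all genes). With the change in the control line subtracted, 3 were called (11.7%): Bach2 at 2.78, Myb at 1.59 and Pou2f2 at -1.08 (adjusted p = 4.45e-05, 6.07e-05 and 0.0158). With the batch as a replicate block 6 were called. There were also 6 with the 0 h cultures as blocks of their own, where 2440 of all genes were called. The call of Pou2f2 with the control line subtracted was lost without any 1 of the replicates (0.066 to 0.191), and in a fit of the 4 groups alone (0.087). In the Ikaros line alone, the step of Bcl11a was not called without replicate 1 (0.146) or replicate 2 (0.173) or in a fit of both groups alone (0.106), nor that of Pou2f2 without replicate 2 (0.0703), where 3 of the 10 were left. Without replicate 3, 5 were called with the control line subtracted. Lef1 and Bcl11a had their largest step from 0 h to 2 h, as had Ebf1 and Pou2f2, and Pax5, Pou2af1 and Bcl6 from 6 h to 12 h.

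From 12 h on there were 9 pairs of control and Ikaros libraries from one batch and time, the same 3 batches at 3 times. Pax5, Ebf1, Bach2, Sox4, Pou2af1 and Bcl6 were higher in the Ikaros library of all 9, Myb in 8, and Lef1 and Bcl11a lower in all 9. Pou2f2 was higher in 6 and lower in 3. Over all 18 pairs Bcl6 was higher in 18, Bach2 in 17, Sox4 in 16, Ebf1 and Pou2af1 in 15 and Pax5 in 13, and Lef1 was lower in 18. The share of all genes with one sign in every pair was not counted. The lines did not overlap for 51.0%, 64.5% and 71.0% of all genes at 12, 18 and 24 h.

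Because the normalization corrects for length, the level of one factor can be set beside that of another, on the log2 scale. At 0 h in the control line the order from the top was Pou2af1 (16.19), Pax5 (16.17), Myb (15.79), Ebf1 (15.52), Lef1 (14.88), Sox4 (14.85), Bcl11a (13.54), Pou2f2 (12.07), Bach2 (9.94) and Bcl6 (8.75). The neighbours Pou2af1 and Pax5, Myb and Ebf1, and Lef1 and Sox4 overlapped in their libraries. Pou2af1 and Pax5 stood at percentile 97.6 among all genes, Bach2 at 27.9 and Bcl6 at 19.5. At 24 h this order was kept in the control line but for an exchange of Pax5 with Pou2af1 and of Ebf1 with Myb. In the Ikaros line at 24 h it was Pou2af1 (17.69), Myb (17.36), Pax5 (17.25), Sox4 (16.81), Ebf1 (16.54), Bach2 (15.02), Lef1 (12.92), Bcl6 (12.57), Pou2f2 (12.17) and Bcl11a (11.52), with overlap between Myb and Pax5 and between Sox4 and Ebf1. From 0 h to 24 h in that line, Bach2 went from percentile 34 to 93.8 and Bcl11a from 85.2 to 47.1.

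**Figure D3:**
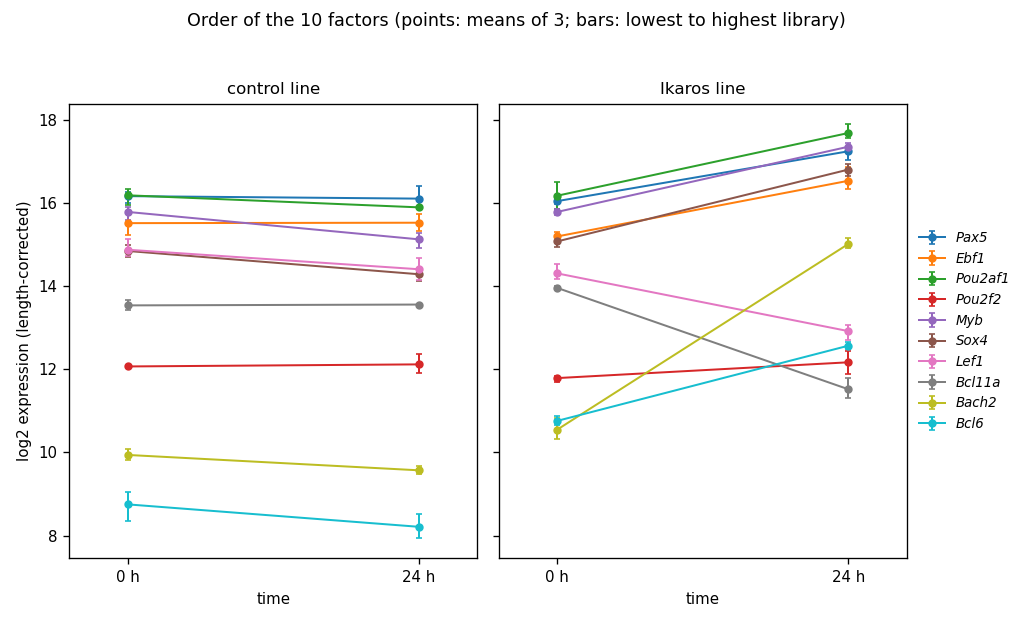
Mean log2 expression (y axis, corrected for gene length) of the 10 factors at 0 h and 24 h in the control line (left) and the Ikaros line (right); bars run from the lowest to the highest of 3 libraries. In control cells Myb goes from 15.79 to 15.13 and Sox4 from 14.85 to 14.29, whereas in Ikaros cells Bach2 climbs from 10.55 to 15.02 and crosses Lef1 and Bcl11a, which come down to 12.92 and 11.52.

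Of 17 close relatives of the members, 7 were measured, and at 24 h 1 was called higher and 2 lower, with a median difference of -0.16 against -0.01 over all genes. The shares over all genes at 24 h were 31.0% higher and 31.9% lower, also for the lists that follow. Bach1, the sister of Bach2, was higher by 1.70 (limma, SE 0.29, adjusted p = 1.4e-05). Tcf7, the T cell relative of Lef1, stood at -2.26 (limma, SE 0.56, adjusted p = 0.00111; 0.0628 without replicate 2), and Mybl2, the cell cycle relative of Myb, stood at -1.91 (limma, SE 0.09, adjusted p = 2.84e-16). Mybl2 was thus lower at the time when Myb was higher.

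Among 18 other transcription factors of the B lineage, 15 were measured. At 24 h 12 were called higher and 2 lower (31.0% and 31.9% of all genes), with a median difference of 0.73. The largest differences between the lines were in Ets1 (7.84), Spib (6.06) and Gfi1 (2.70; limma, adjusted p = 3.3e-16, 2.13e-15 and 6.47e-05). At 0 h Ets1 already differed by 4.93, and Gfi1 by 1.43, which was not called. Called lower were Ikzf3 (-1.59), the sister gene of Ikaros named Aiolos, and Irf8 (-0.88; limma, adjusted p = 0.0107 and 2.41e-07). Ikzf3 was not called without replicate 2 (0.108) or replicate 3 (0.0509) or in a fit of the 24 h groups alone (0.0851).

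Of 20 B cell genes known to be activated by Pax5 and Ebf1, 18 were measured. At 24 h, 9 were called higher and 5 lower (31.0% and 31.9% of all genes), and the median difference was 0.74. Spib (6.06), the inhibitory receptor Cd22 (4.74) and the adaptor Blnk (4.14) differed most upwards (limma, adjusted p at most 1.03e-09). For Cd22 this was a standing difference between the lines, 5.31 at 0 h, whereas Spib (-0.48) and Blnk (-0.15) were not called then. The lowest differences were in Igll1 (-3.96) and Vpreb1 (-3.42), which encode the surrogate light chain, and in the complement receptor Cr2 (-2.09; limma, adjusted p at most 4.8e-12).

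Of 11 genes known to be repressed by Pax5, 9 were measured. At 24 h 1 was called higher and 2 lower, with a median difference of -0.33. The chemokine Ccl9 was higher by 1.70 (limma, SE 0.58, adjusted p = 0.0121; 0.198 without replicate 2) and had been higher by 2.72 at 0 h. Lmo2, a factor of blood progenitors, stood at 0.96 for 0 h and -2.51 for 24 h (limma, adjusted p = 0.000168 and 4.21e-13). Tcf7, given above, was the other gene called lower.

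Of 8 genes known to be repressed by Bcl6 or Bach2, 7 were measured, and all were called at 24 h, 4 higher and 3 lower, with a median difference of 0.66, at a time when 62.9% of all genes were called. The cell cycle inhibitor Cdkn1b was higher by 3.14, Xbp1, a factor of secretory cells, by 1.60 and Cdkn2a by 0.76 (limma, adjusted p = 1.89e-13, 7.52e-12 and 0.0164). Cdkn1b and Xbp1 were already higher at 0 h, by 0.66 and 0.62 (adjusted p = 0.0339 and 0.000858). Cdkn2a was not called without replicate 1 (0.12) or replicate 2 (0.223). The cyclin gene Ccnd2 (-3.25), Trp53 (-0.93) and Cdkn1a (-0.61) were lower at 24 h (adjusted p = 2.31e-14, 7.31e-09 and 0.0034). Ccnd2 had been called higher at 0 h (0.70; limma, adjusted p = 0.0141).

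For Lef1, 4 of 8 Wnt target genes were measured, and 3 were called lower and none higher at 24 h, with a median of -2.39. They were Ccnd1 (-4.13), Myc (-2.52) and Tcf7 (-2.26; limma, adjusted p = 2.29e-14, 5.99e-13 and 0.00111), while Rnf43 differed by -0.10 (adjusted p = 0.802). At 2 h Myc alone of the 4 was called (-1.63; adjusted p = 4.97e-08). For Myb, 5 of 8 genes it is known to activate were measured. The repressor Gfi1 (2.70) and the IL-7 receptor gene Il7r (2.15) were called higher, and Myc, the survival gene Bcl2 (-2.20) and the mitotic cyclin Ccnb1 (-1.25) lower (limma, adjusted p at most 6.47e-05), with a median of -1.25.

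**Figure D4:**
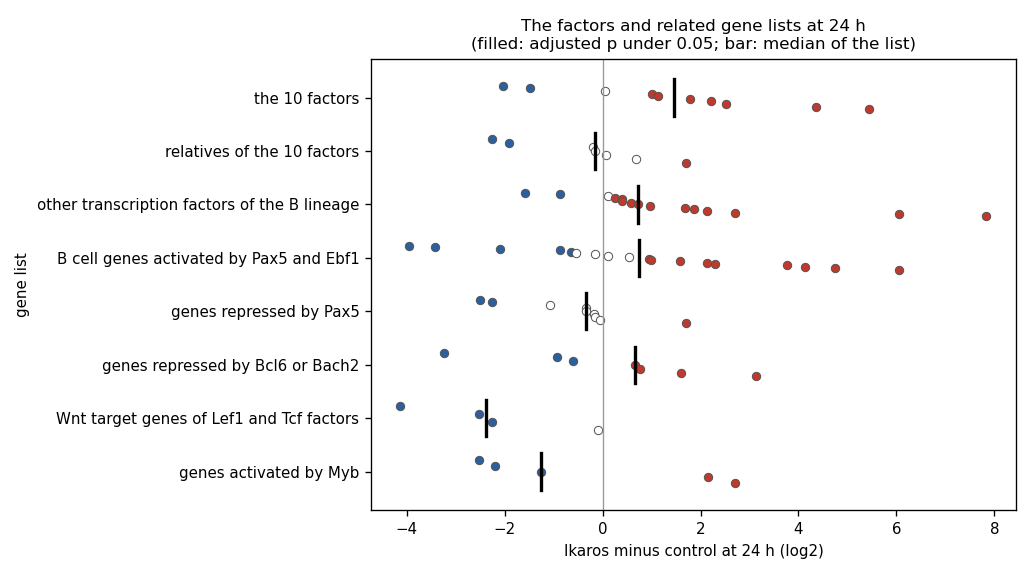
Difference between the Ikaros and the control line at 24 h (x axis, log2) for every measured gene of 8 lists (rows); red points are called higher, blue points lower, open points are not called, and the black bar is the median of the list. The median is 1.46 for the 10 factors, 0.74 for genes activated by Pax5 and Ebf1 and -2.39 for Wnt target genes, and most lists hold points on both sides of 0.

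The labelled cell type was checked with marker genes. All 12 markers of B cell precursors were measured, and at 24 h 8 were called higher (31.0% of all genes) and 2 lower (31.9%), Igll1 and Vpreb1. Their mean level per library was between 13.47 and 13.64 in control and between 14.35 and 14.58 in Ikaros cells at 24 h. Of the T cell markers 1 of 8 was measured, Gata3, which was higher by 1.91 (limma, SE 0.52, adjusted p = 0.00239; 0.0647 without replicate 1) at a level of at most 7.90. Cd3e, Cd3d, Cd3g, Cd4 and Cd8a were not among the genes of the table. Of the myeloid markers 2 of 6 were measured, Itgam (4.24; limma, SE 0.54, adjusted p = 1.39e-07) and Lyz2 (-2.94; limma, SE 0.56, adjusted p = 4.96e-05). Their mean per library was between 6.14 and 6.79 in control and 6.62 and 7.25 in Ikaros cells. That mean joins opposite courses, as Itgam averaged 5.11 in control and 9.35 in Ikaros cells, and Lyz2 7.61 and 4.68. Lyz2 had been called higher in the Ikaros line at 0 h (2.94, adjusted p = 0.000627) and 2 h (2.66, adjusted p = 0.000986). Of the erythroid markers 2 of 4 were measured and none was called at 24 h, of the mature B cell markers 2 of 5, with Cr2 called lower, and of the plasma cell markers 0 of 4. The part of other cell types in the members' values was not tested, and in bulk samples fewer cells of a type cannot be told apart from less RNA per cell.

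Over the 36 libraries, the genes whose values ran most closely with each factor were found among 6359 genes of at least median expression. Pearson's r is given as a description, since the libraries share the line and time pattern. Bach2 ran with Psap (r = 0.987) and Klhl24 (0.985), Bcl11a with Endod1 and Pax7 (0.977 each), Bcl6 with Fat1 (0.976) and Tpm4 (0.959), and Pou2af1 with Syvn1 (0.973) and Rere (0.972). Next, Pax5 ran with BC053749 (0.968) and Rnf167 (0.956), Sox4 with Smim14 (0.957) and Mau2 (0.947), Myb with Cxcr4 (0.947), and Lef1 with Tns3 (0.947) and Cyb561a3 (0.946). Ebf1 (0.89 with Pcyt2 and 0.875 with Gnas) and Pou2f2 (0.864 with Sys1 and 0.859 with Nabp2) had the least close partners. Within the 18 libraries of one line the r of Bach2 with Psap was 0.863 in control and 0.981 in Ikaros cells.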

How the data were processed

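mRNA of 36 B3 libraries was sequenced, 3 in each of the 12 groups of line and time, from numbered culture batches, and batch numbers are taken as the replicates. The submitters' processing notes name TopHat2 and HTSeq and the build mm10, with versions not given in the sources used here. The deposited values are log2 expression, for which the authors normalized gene counts with cqn, correcting for GC content and gene length, removed library-preparation effects with ComBat and added a constant so that the lowest value is 1. The log base is that of cqn and is not written in the table. The study's methods set a target depth, but the reads behind each value are not known, so no counting interval is given. The libraries were strand-specific, and whether the counting used the strand is not given in the sources used here. This removal before deposit can make standard errors too small.

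One limma model (limma 3.58.1, R 4.3.3) with 12 group means was fitted to all 12762 genes as deposited, with moderated tests, Benjamini-Hochberg adjustment over all genes and calls at an adjusted p under 0.05. An SE is that of the fitted log2 difference with limma's moderated variance. The tests were also run on simulated data with independent normal noise and no batch effect. Such data cannot show how the tests behave where libraries share a batch. Levels are compared between genes only on this length-corrected scale. The members and lists were chosen with earlier results of these data known. The genes named were the members and Ikzf1. To these came up to 3 genes with the largest called differences between the lines in each direction at 24 h in each list. Lists with at most 6 measured genes could be named whole. Among the B cell precursor, erythroid and mature B cell markers, not every such gene was named. Also named were the 2 genes with the highest Pearson r to each member over 36 libraries, among 6359 genes with a symbol and a mean of at least the median of 11.72. For Myb 1 of these 2 is not reported here.

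Same-numbered libraries of both lines at one time share a batch number by their labels. That a batch is a repeat of the cultures is taken from the study's methods. Their deviations from the group means correlated between -0.062 and 0.507 in 18 pairs (median 0.127, with 12 above 0.1). Alternatives were a replicate block (with or without separate 0 h blocks), only the groups compared, quantile normalization, trend and robust settings of eBayes, a filter at the 25th percentile of mean expression, and leaving out each replicate. Gene positions are from GENCODE M21 on GRCm38 and promoter windows from RefSeq on GRCm38.p6, with all 10 members matched by symbol. Lists are described by counts and medians only.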

Additional observations from a re-analysis of the deposited data

Results flagged for a closer look

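For 8 of the 10 factors the difference between the Ikaros and the control line at 24 h was not the difference at 0 h, by the interaction test in limma across all genes, which called 48.4% of all genes. The change was 4.85 for Bach2, 2.36 for Bcl6, 2.29 for Sox4, 2.22 for Myb, 1.80 for Pou2af1, 1.34 for Ebf1, 1.26 for Pax5 and -2.46 for Bcl11a on the log2 scale. Pax5 was not called without replicate 2 (adjusted p = 0.0842). The same test from 2 h to 24 h, which uses no 0 h library and called 47.3% of all genes, picked out 7 of them, with changes of 5.27 for Bach2, 2.76 for Myb, 2.30 for Bcl6, 2.06 for Sox4, 1.80 for Pou2af1, 0.88 for Pax5 and -0.89 for Bcl11a. Pax5 was not called there without replicate 1 (0.0652) or replicate 2 (0.278). Both sets share the 24 h libraries. Dixon's test for a library that stands apart was not run on groups of 3.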

How the results depend on the processing

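Of 179 single-gene values recomputed under 9 alternatives, 1462 of 1564 stayed on their side of the threshold in the same direction, 71 were no longer called, 21 became called and 10 changed sign, none of them a called value. Of 428 recomputed counts, 341 were within 1.5 times. The sign changes, for uncalled differences of Ikaros against control, were Pou2af1 at 2 h with quantile normalization (0.00) and, leaving out 1 replicate, Pou2af1 at 0 h (-0.10 to 0.06) and 2 h (-0.10 to 0.09), Myb at 0 h (-0.09 to 0.07), Pax5 at 6 h (-0.15 to 0.09) and Pou2f2 at 18 h (-0.14 to 0.24) and 24 h (-0.18 to 0.17).

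The replicate block by culture batch changed the counts of members called to 4 for the change of the difference from 0 to 2 h, 6 for that from 12 to 18 h, 3 for control cells at 6 h and 1 each at 18 and 24 h. Genes called came to 3720 for Ikaros cells at 2 h, and 2585 and 129 for control cells at 6 and 18 h. With the 0 h cultures as replicate blocks of their own, members called were 8 for Ikaros against control at 6 h, 4 for the change from 0 to 2 h and 6 from 12 to 18 h, and genes called 661 and 2440 for these changes. Comparisons of a line with its own 0 h could not be fitted that way. Beyond the calls and counts given here and beside the results, the block changed no call.

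With only the groups compared, which leaves fewer samples for the spread, genes called were 860 at 2 h and 2150 at 6 h for Ikaros against control, 257 for the change from 0 to 2 h, 589 from 12 to 18 h, 758 and 2471 for Ikaros cells at 2 and 6 h, 2085 for their step from 12 to 18 h, and 0, 12, 0, 0 and 0 for control cells at 2, 6, 12, 18 and 24 h. Members called were 3 at 2 h, 2 for the changes from 0 to 2 h and 0 to 6 h, 3 for Ikaros cells at 2 h and 0 for control cells at 6 h. The filter, which tests 9571 genes, gave 701 genes at 0 h, and quantile normalization 4 for control cells at 12 h.

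Leaving out 1 replicate also leaves fewer samples. Genes called then ranged from 318 to 1204 at 0 h, 804 to 2719 at 2 h, 2640 to 4971 at 6 h and 3769 to 5921 at 12 h for Ikaros against control. For the change of the difference from 0 h they ranged from 54 to 469 by 2 h, 584 to 1954 by 6 h, 1548 to 3924 by 12 h, 3077 to 5809 by 18 h and 4056 to 6404 by 24 h, from 2 to 24 h from 3775 to 6217, from 12 to 18 h from 143 to 1275, and in the F test from 4064 to 7616. Ikaros cells gave 645 to 1599 by 2 h, 1904 to 3707 by 6 h, 3598 to 5700 by 12 h and 1066 to 2898 for the step from 12 to 18 h. Control cells gave 0 to 6, 0 to 115, 0 to 8, 0 to 10 and 0 to 22 over their 5 times. Members called ranged from 1 to 3 at 0 h and 3 to 6 at 2 h, for the change of the difference from 1 to 3 by 2 h, 1 to 4 by 6 h, 4 to 8 by 12 h and 2 to 5 from 12 to 18 h, for the step in Ikaros cells from 3 to 6, and for control cells they were 0 at 6 h and 0 to 1 at 12 and 24 h. The lowest counts of genes came without replicate 1 or replicate 2. The depth reached by each library is not known from the values.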
